A study of Mus musculus with 17 samples.

Results

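Cytosolic ribosomal protein genes encode the proteins of the large and small subunits of the ribosome that translates nuclear-encoded mRNA. The members were all rows of the deposited table whose symbol starts with Rpl or Rps followed by a digit, together with Rplp0, Rplp1, Rplp2 and Rpsa. The Rps6k kinases, Rps19bp1 and names containing -ps were left out. This gave 84 of the 13501 genes in the table, 51 of the large subunit and 33 of the small subunit. Of these, 7 are paralogs that stand beside a standard member (Rpl22l1, Rpl36al, Rpl39l, Rpl3l, Rpl7l1, Rps27l and Rps27rt), and the other 77 are called core members here. A filter of a normalized read count of at least 10 in at least 3 libraries kept 83 members, and only Rpl3l dropped out.

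The study profiled sorted brain myeloid cells of mice by bulk RNA sequencing, and asked by its title whether a cell therapy restores the function of Trem2, a lipid-sensing receptor of microglia, in an Alzheimer's disease model. DAPI-negative CD45+CD11b+ cells were sorted from brain, and the 17 libraries were made with a SMART-Seq v4 low-input kit. Normal microglia came from untreated wild-type mice without 5xFAD (3 libraries, S20, S21 and S36). Microglia of untreated 5xFAD mice were Trem2 wild type (3 libraries, S22 to S24) or Trem2 knockout (3 libraries, S25 to S27). Transplanted cells, labelled circulation-derived myeloid cells, came from Trem2 knockout 5xFAD hosts given a bone marrow transplant plus PLX5622, which depletes microglia by blocking CSF1R. Their donors were Trem2 wild type (4 libraries, S28 to S31) or Trem2 knockout (4 libraries, S32 to S35).

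The 5xFAD line carries human transgenes of familial Alzheimer's disease under a neuronal promoter and forms amyloid plaques. The labels used here do not give strain, age or sex, or say whether the libraries of a group are separate animals; the p-values therefore cover only the spread among these libraries, which may be technical. The sort named in the labels uses no donor marker, and host cells may be among the transplanted cells. All transplant groups share the knockout host, 5xFAD and the treatment, so cell origin and treatment cannot be told apart. Wild-type transplanted cells came from knockout hosts, and wild-type 5xFAD microglia from wild-type mice. Host Trem2 genotype and cell origin therefore cannot be told apart in that comparison, or in the interaction that uses it. No Trem2 knockout group without 5xFAD was present. Where knockout 5xFAD microglia are set against normal microglia, 5xFAD and loss of Trem2 therefore cannot be told apart. In bulk samples, fewer cells of a type and less RNA per cell cannot be told apart either.

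A ribosome needs its proteins in fixed proportion, and cells adjust their synthesis together with ribosomal RNA. Most of these mRNAs start with a pyrimidine-rich stretch, the terminal oligopyrimidine tract, through which mTORC1 controls their translation as a block, while MYC drives their transcription. Growth and activation raise the demand for ribosomes, and microglia are long-lived cells that divide little in the healthy brain.

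A library held 16044078 to 30606394 recovered reads. The targeted gene followed the labels in every library: Trem2 lay at 31205 to 53908 normalized read counts in the 3 wild-type groups and at 3962 to 5965 in the 2 knockout groups. The 7 microglia markers (Tmem119, P2ry12, Sall1, Siglech, Fcrls, Olfml3 and Gpr34) summed to 353300 to 482509 in microglia and to 218110 to 265304 in transplanted cells, and 10 neutrophil markers to 41556 to 125383 in Trem2 knockout 5xFAD microglia against 3933 to 27642 elsewhere. The libraries S22/S23, S25/S27 and S30/S31 were closer to each other (chi-square per degree of freedom 6.21, 9.86 and 4.98 over all genes) than any other pair within a group (13.57 or more). S26 stood apart from S25 and S27 (136.13 and 136.49). Apoe took 12.3% to 16.2% of the reads in transplanted cells and 0.497% to 1.24% in microglia, which lowers every other gene's share there.

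Start sequences are shown for members that carry the results below, to let a reader see such a stretch near the start or its absence. They are RefSeq starts on GRCm38.p6, from 10 bases before to 20 bases from the annotated start. Capitals mark the longest tract in the window, defined as a C followed by at least 5 further pyrimidines on the sense strand. A match may lie wholly before the annotated start, as in Rps27l and Rpl39l. Such a match is outside the annotated mRNA. The first 4 are core members: Rpl38, Rplp2 and Rpl28 rose in wild-type transplanted cells, and Rps27 is the parent of 2 paralogs. The other 5 are paralogs. Their positions are chr11:114668570-114668599 (+) for Rpl38, chr7:141447641-141447670 (+) for Rplp2, chr7:4792955-4792984 (+) for Rpl28 and chr3:90213629-90213658 (-) for Rps27. For the paralogs they are chr9:66946076-66946105 (+) for Rps27l, chr3:28805498-28805527 (+) for Rpl22l1, chr12:69184048-69184077 (-) for Rpl36al, chr17:46782637-46782666 (-) for Rpl7l1 and chr16:10170218-10170247 (+) for Rpl39l.
Rpl38: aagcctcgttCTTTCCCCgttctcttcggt
Rplp2: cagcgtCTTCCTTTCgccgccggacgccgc
Rpl28: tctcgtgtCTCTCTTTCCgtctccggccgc
Rps27: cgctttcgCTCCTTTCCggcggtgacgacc
Rps27l: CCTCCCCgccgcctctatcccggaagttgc
Rpl22l1: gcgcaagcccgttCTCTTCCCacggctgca
Rpl36al: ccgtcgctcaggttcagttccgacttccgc
Rpl7l1: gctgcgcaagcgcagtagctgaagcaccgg
Rpl39l: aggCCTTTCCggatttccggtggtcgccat

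The RefSeq table held a start for 64 members. Of 57 core members with a start, 33 (57.9%) had such a tract in the window, as did 4 of 7 paralogs (57.1%), 2549 of 9619 other tested genes (26.5%) and 6735 of all 27025 genes in the table (24.9%). A match describes these letters and is not a measured site. Matches wholly before the annotated start are counted as well.

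Reads in the members made up 0.740% to 1.47% of all reads in a library. In normal microglia the shares were 0.769%, 0.889% and 0.740%, and in Trem2 wild-type 5xFAD microglia 0.875%, 0.932% and 1.00%. Trem2 knockout 5xFAD microglia gave 1.41%, 0.833% and 1.47%, in the order S25, S26 and S27. Library S26 lay within the range of normal microglia, while S25 and S27 were the highest of all 17. In wild-type transplanted cells (S28 to S31) the shares were 0.839%, 1.02%, 1.29% and 1.23%, and in knockout transplanted cells (S32 to S35) 0.962%, 0.971%, 1.26% and 1.02%. Group means were 0.799% ± 0.0793 (SD, n = 3) in normal microglia, 0.936% ± 0.0628 (n = 3) and 1.24% ± 0.353 (n = 3) in wild-type and knockout 5xFAD microglia, and 1.09% ± 0.206 (n = 4) and 1.052% ± 0.139 (n = 4) in wild-type and knockout transplanted cells. With Apoe left out of the total, an alternative added after the data were seen, the transplant means were 1.29% and 1.21%. On that basis the means were 0.804% in normal microglia and 0.947% and 1.25% in wild-type and knockout 5xFAD microglia. S30 was then the highest library at 1.52%, S27 followed at 1.49%, and S25 was at 1.43%.

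**Figure D1:**
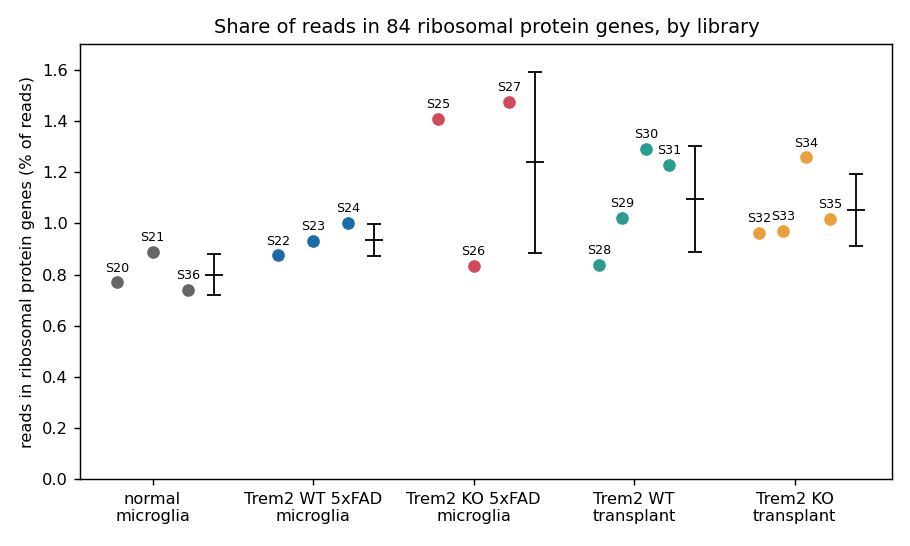
Share of reads in the 84 ribosomal protein genes (y axis, % of recovered reads) for each of the 17 libraries, grouped on the x axis; black marks beside the points give the group mean and SD. S25 and S27 lie highest at 1.41% and 1.47%, while S26 of the same group lies at 0.833%.

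The members moved as a block from library to library. Relative to the mean of normal microglia on the log2(value + 1) scale, the median deviation of the 77 core members was 0.13, 0.24 and 0.36 in S22, S23 and S24. It was 0.74 in S25 and 0.84 in S27 but 0.003 in S26. The wild-type transplants spread from 0.17 in S28 through 0.63 in S29 to 1.07 in S30 and 0.92 in S31, and the knockout transplants lay at 0.41, 0.46, 0.79 and 0.52. The median of all tested genes stayed between -0.01 and 0.07 in the same libraries. All 77 core members were above the normal mean in S24, S25, S27, S29, S30, S31 and S34, and 39 were in S26. Large and small subunit genes kept a nearly fixed proportion: the ratio of their reads ran from 1.39 to 1.52 over the 17 libraries.

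**Figure D2:**
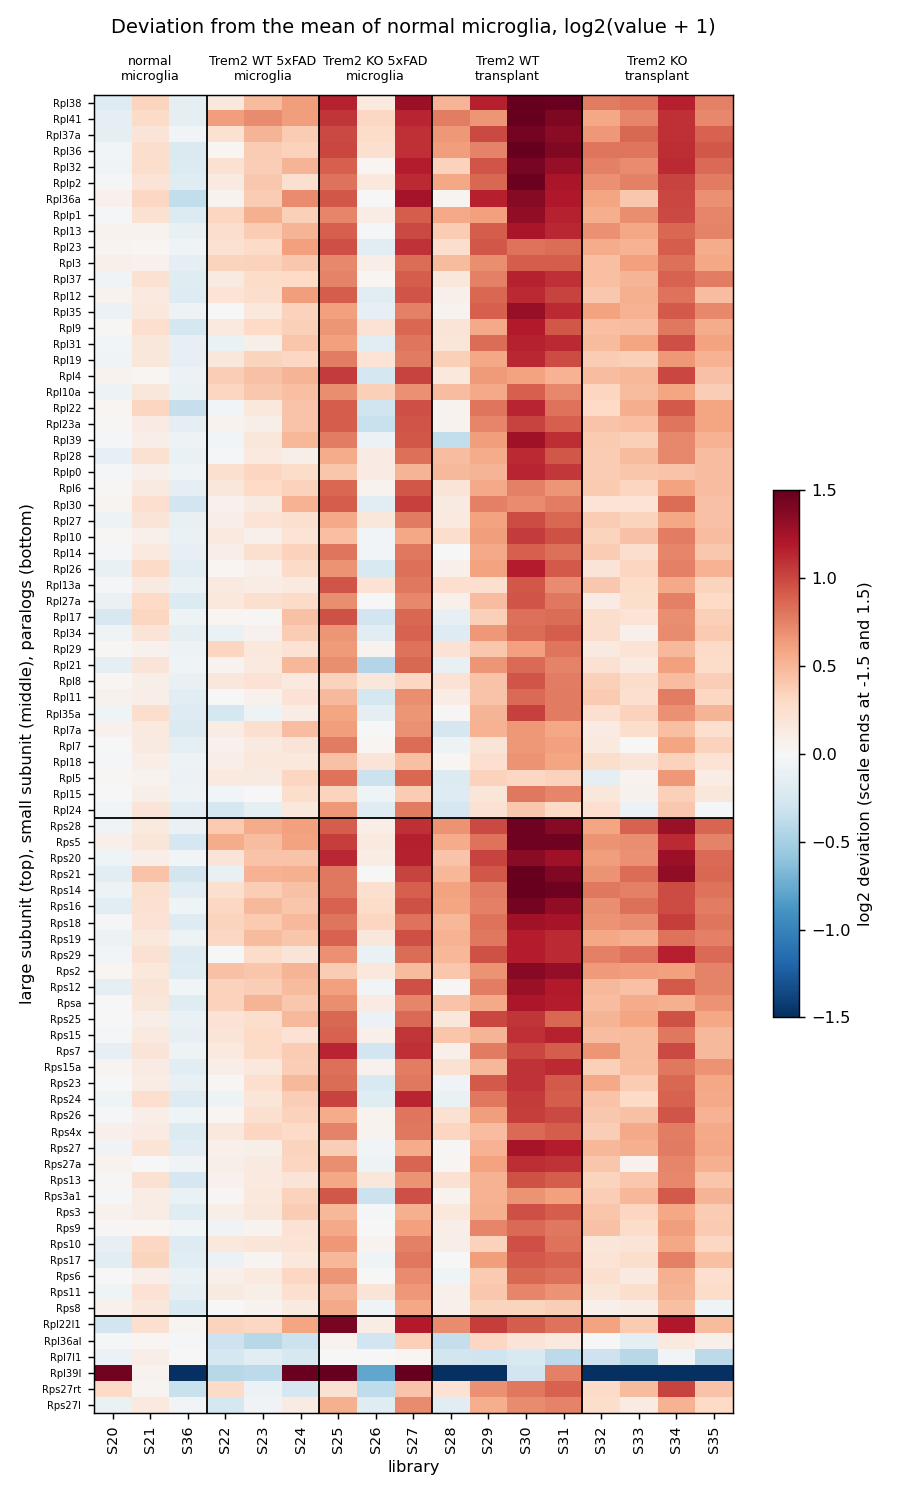
Deviation of the tested members (rows, 1 of 83 not shown) from the mean of normal microglia in each library (columns), on the log2(value + 1) scale, with large subunit genes at the top, small subunit genes in the middle and paralogs at the bottom; colours end at -1.5 and 1.5. Most rows of S25, S27, S30 and S31 are red from top to bottom and S26 is pale, while Rpl39l and Rpl7l1 follow a pattern of their own.

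Levels were compared between genes per kilobase of annotated transcript. Averaged over the 5 group means, Rpl13, a large subunit protein, was highest at 9902 normalized read counts per kilobase and Rps14, of the small subunit platform, followed at 9467. The lowest were Rps27rt (163), Rpl39l (14.1) and Rpl3l (0.7), all of them paralogs. Rpl3l, which replaces Rpl3 in heart and skeletal muscle, was at 0 in every wild-type 5xFAD microglia and wild-type transplant library and never above 5.33 normalized read counts. The annotated length may not be the transcript used, in particular for Rps15a and Rps20 (5154 and 3706 nt), so ranks of single genes are approximate.

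The first pair of comparisons set 5xFAD microglia against normal microglia. A gene was called at an adjusted p under 0.05 in limma, with Benjamini-Hochberg adjustment over all 12074 tested genes, and changes are log2 fold changes on the log2(value + 1) scale. In Trem2 wild-type mice 77 of 83 members had a positive change, with a median of 0.23 against 0.00 for all tested genes, yet 0 were called, against 3.78% of all tested genes (2.83% higher and 0.952% lower). At an unadjusted p under 0.05 there were 9 members. The edgeR and DESeq2 tests on recovered reads called 0 members each, against 458 and 769 of the 12074 tested genes. Between the groups, 32 of 83 members had no overlap of libraries, against 33.6% of all tested genes.

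Rpl10a, of the stalk that lies across from the P stalk, had the smallest p. Its normalized read counts were 1379.6, 1627 and 1358 in normal microglia and 1807, 1925 and 1984 in wild-type 5xFAD microglia, a change of 0.39 (SE 0.13, adjusted p = 0.12, limma). Rpl41, the smallest ribosomal protein, went from 1951, 2611 and 1932 to 3309, 3499 and 3300.0, a change of 0.65 (SE 0.23, adjusted p = 0.147, limma). For both genes every 5xFAD library was above every normal one. When only these 2 groups were in the model, 21 of 83 members were called, against 14.6% of all tested genes in that fit, and with all groups in the model no member was called when any 1 of the 6 libraries compared was left out. Mitochondrially encoded genes moved alongside, with 12 of 12 tested positive (median 1.03) and 0.120% to 0.141% of reads against 0.0579% to 0.0826% in normal microglia. In the same comparison 4 of 10 neutrophil and 2 of 7 T and NK cell markers fell, and 2 of 5 endothelial markers rose. The part of these genes in the result was not tested.

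In Trem2 knockout 5xFAD microglia 83 of 83 members had a positive change against normal microglia, with a median of 0.52. Only Rpl10a, Rpl37a and Rpl41 were called, which is 3.61% of members against 3.91% of all tested genes (2.7% higher and 1.21% lower). Libraries did not overlap for 14 members, against 20.2% of all tested genes. Rpl37a, a zinc-binding large subunit protein, had 1751, 2204 and 1872 normalized read counts in normal microglia and 3838, 2345 and 4132 in S25, S26 and S27, a change of 0.79 (SE 0.21, adjusted p = 0.0447, limma). Rpl41 was at 4514, 2658 and 4741, a change of 0.84 (SE 0.23, adjusted p = 0.0493, limma), and Rpl10a at 2360.4, 1861 and 2326, a change of 0.58 (SE 0.13, adjusted p = 0.0258, limma). All 3 lay above the normal libraries in every knockout library, though S26 was the lowest each time.

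By role, the medians in this comparison were 0.58 for the 3 P stalk genes, 0.38 for the 5S rRNA partners Rpl5 and Rpl11, 0.51 for 8 genes of the peptide exit tunnel, 0.40 for 4 genes of the mRNA entry and decoding site and 0.47 for 9 genes mutated in Diamond-Blackfan anemia, an inherited failure of red cell production. None of these was called, and the large and small subunit had medians of 0.53 and 0.51. In wild-type 5xFAD microglia the same groups had medians of 0.28, 0.14, 0.18, 0.24 and 0.18, again with none called, and the subunits 0.23 and 0.21. The 6 tested paralogs stood lower, at a median of 0.22 in knockout and -0.04 in wild-type 5xFAD microglia.

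The size of this change depended on which knockout libraries entered. Without S26, 75 members were called, against 38.2% of all tested genes in that fit, and the median was 0.79. Without S25 and S27 the median was -0.007 with 0 called, against 0.0168% of all tested genes, the lone S26 being assumed to vary like the other groups. With the closest pairs of libraries averaged, 0 were called, against 0.169% of all tested genes. Leaving out S20, S36, S25 or S27 alone also left 0 calls, and leaving out S21 left 1. S25 and S27 also had the highest neutrophil sums (116405 and 125383, against 41556 in S26) and the highest mitochondrial share of reads (0.257% and 0.246%, against 0.0708% in S26), whose part in the result was not tested.

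Next, Trem2 wild-type cells were compared with knockout cells. In microglia 82 of 83 members had a negative change, meaning lower in wild type, with a median of -0.29 against 0.01 for all tested genes. Other coding genes under 1000 nt had medians about as low or lower, as given with transcript length below. No member was called, against 5.09% of all tested genes (2.59% higher and 2.5% lower in wild type), with 5 at an unadjusted p under 0.05. The edgeR and DESeq2 tests called 0 members each, against 569 and 1001 of the 12074 tested genes. The smallest p belonged to Rpl13a, a large subunit protein also known for binding interferon-response mRNAs, and to Rpl28, a large subunit protein. Rpl13a was at 393, 383 and 393 in wild-type and 685, 413 and 617 in knockout microglia, a change of -0.52 (SE 0.20, adjusted p = 0.148, limma), and Rpl28 at 808, 915 and 876 against 1217, 899 and 1468, a change of -0.44 (SE 0.19, adjusted p = 0.185, limma). The groups did not overlap for Rpl13a and overlapped for Rpl28, where S26 lay inside the wild-type range. Over all members they did not overlap in 4 of 83, against 22.2% of all tested genes.

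The direction in microglia rested on S25 and S27. Without them the median was 0.24, opposite in sign, with 0 called, while without S26 it was -0.56 and 39 members were called, all lower in wild type, against 30.5% of all tested genes in that fit. Of 10 tested neutrophil genes 8 fell, as did 7 of 7 monocyte genes. Their part in the members' difference was not tested.

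In transplanted cells 80 of 83 members were higher with wild-type donors, but the median was only 0.17 against 0.05 for all tested genes, and 0 were called against 6.74% of all tested genes (3.75% higher and 2.99% lower). There were 2 at an unadjusted p under 0.05, against 3245 of the 12074 tested genes. The edgeR test called 0 members and DESeq2 called 2, against 1027 and 1695 of all tested genes. Other coding genes under 1000 nt had medians close to those of the core members, as given with transcript length below. Rplp0, the scaffold of the P stalk that recruits elongation factors, was at 8206, 8352, 12863 and 12165 with wild-type donors and 7582, 7771, 7888 and 8054 with knockout donors. Every wild-type library lay above every knockout library, but the change of 0.38 (SE 0.13) missed the threshold (adjusted p = 0.0847, limma). The other gene was Rpl39l, described with the paralogs. The groups did not overlap for these 2 members only, against 13.7% of all tested genes. Without S30 and S31 the median was -0.12. Those 2 libraries also had oligodendrocyte marker sums of 23438 and 23674 against 4525 to 11087 in the other transplants, and 5 of 7 oligodendrocyte genes rose with wild-type donors; their part in the result was not tested.

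The comparison of transplanted cells with microglia of the same Trem2 genotype of the cells gave the most calls. In the wild-type pair the Trem2 genotype of the host mice differed, as stated above. With Trem2 wild-type cells 80 of 83 members were higher after transplant, with a median of 0.47 against -0.03 for all tested genes. Here 21 members rose and 0 fell. That is 25.3% of members, below the 28.2% called in all tested genes in either direction and above the 13.6% that rose (14.6% fell). The large subunit gave 12 of 50 and the small subunit 9 of 33. Members are short and shorter coding genes rose more often, so the 13.6% alone does not set the members apart. Of other coding genes, 14 of 43 under 500 nt rose, as did 56 of 165 in the class from 500 nt. In the classes from 700 and 1000 nt, 111 of 457 and 288 of 1172 rose. Core members in these classes rose in 4 of 9, 5 of 17, 8 of 27 and 3 of 15. The part of length was not tested. The groups did not overlap for 21 members, or 25.3%, against 41.1% of all tested genes.

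In the P stalk, Rplp0 went from 6916, 7336 and 7066 in wild-type microglia to 8206, 8352, 12863 and 12165 in wild-type transplanted cells, a change of 0.52 (SE 0.14, adjusted p = 0.0112, limma). Rplp2, which binds elongation factors through its tail, went from 1679, 2027 and 1814 to 2283, 2771, 4244 and 3579.8, a change of 0.77 (SE 0.21, adjusted p = 0.00891, limma). Its partner Rplp1, at 0.51, was not called (adjusted p = 0.0598, limma). For all 3 stalk genes every transplant library lay above every microglia library, with S30 and S31 highest.

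Among other large subunit proteins the largest rise was that of Rpl36, from 1281, 1639 and 1601 to 1940.3, 2107, 3781 and 3311, a change of 0.84 (SE 0.23, adjusted p = 0.00987, limma). Rpl38, known for its part in translating Hox mRNAs in the embryo, went from 476, 593 and 661 to 607, 959.8, 1364 and 1200.2, a change of 0.79 (SE 0.27, adjusted p = 0.0369, limma). Rpl36 libraries did not overlap between the groups, whereas for Rpl38 S28 lay below S24. Rpl28 had the smallest p, going from 808, 915 and 876 to 1141, 1213, 1803 and 1572, a change of 0.70 (SE 0.17, adjusted p = 0.00543, limma). Of 8 genes whose proteins line or surround the peptide exit tunnel, Rpl19, Rpl31 and Rpl35 rose and the other 5 were not called; among those, Rpl4 was at 0.04.

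In the small subunit the largest rises were Rps21 and Rps29. Rps29, a zinc-binding protein of the head, went from 1974, 2396 and 2279.6 to 2804, 3841, 4494 and 4325, a change of 0.78 (SE 0.20, adjusted p = 0.00624, limma). Rps21 went from 317, 493 and 495 to 484, 653, 1017 and 894, a change of 0.78 (SE 0.28, adjusted p = 0.0447, limma). Rps29 did not overlap between groups, and Rps21 did, since S28 lay below S23 and S24. Rps14, of the platform, changed by 0.76 (adjusted p = 0.00981, limma). The others that rose, Rpl8, Rpl10, Rpl19, Rpl31, Rpl35, Rpl35a and Rpl37a of the large subunit and Rps9, Rps13, Rps16, Rps18, Rps19 and Rps20 of the small subunit, changed by 0.41 (Rpl8) to 0.74 (Rpl37a).

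Other members with well known roles were not called. Rps6, the substrate of S6 kinases, was at 0.32 (adjusted p = 0.24), Rpsa, also known as the laminin receptor, at 0.43 (adjusted p = 0.0874) and Rps27a, made as a ubiquitin fusion, at 0.52 (adjusted p = 0.116), all by limma. Rpl5 and Rpl11, which carry 5S rRNA into the large subunit and bind Mdm2, were at 0.00 and 0.45 (adjusted p = 0.998 and 0.117, limma). Rpl5 thus stood well below the median of the members, with 1917, 1903 and 2177 in microglia and 1506, 2207, 2155 and 2203 in transplanted cells, where S28 was the lowest. Of 4 proteins at the mRNA entry and decoding site (Rps2, Rps3, Rps15 and Rps23) none was called, with changes of 0.43 to 0.56. Of the 9 Diamond-Blackfan anemia genes Rps19 and Rpl35a rose.

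These calls depended on S30 and S31, and ranged from 6 without S22 to 60 without S28 when 1 compared library was left out. The share of all tested genes called in those fits is not given here, so this range is not a result about the members. Without S30 and S31 0 members were called, against 19.2% of all tested genes in that fit, and the median was 0.19. With the closest pairs averaged 0 were called, against 16.9%, while DESeq2 called 40, against 32.1%. Of the 9 named members that rose here, Rpl28, Rpl37a, Rplp0, Rplp2, Rps14 and Rps29 stayed called without any 1 library, and Rpl36, Rpl38 and Rps21 did not. In the same comparison 6 of 7 microglia markers fell, and 8 of 10 neutrophil and 6 of 7 T and NK cell markers rose, whose part in the result was not tested.

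With Trem2 knockout cells 45 of 83 members were higher after transplant, the median was 0.01 and 0 rose. Only Rpl39l and Rpl7l1 fell, which is 2.41% of members against 25.4% of all tested genes (11.7% higher and 13.7% lower), and no core member was called. Libraries did not overlap for 3 members, against 27.8% of all tested genes. There was 1 core member at an unadjusted p under 0.05, Rps29, from 3203, 1853 and 3564 to 3343, 3487, 4464 and 3596, a change of 0.42 (adjusted p = 0.137, limma). Here again S26 lay well below S25 and S27. Without S25 and S27, 9 members rose, 0 fell and the median was 0.53, with 18.4% of all tested genes called in that fit. Without S26, 12 members fell and the median was -0.25, with 37.5% of all tested genes called. Of the neutrophil markers 9 of 10 fell, as did 7 of 7 monocyte markers, whose part in the result was not tested.

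The test of the difference between the 2 origin effects, which is also the difference between the 2 Trem2 effects, called 0 members against 2.82% of all tested genes (1.95% positive and 0.87% negative). All 83 interaction values were positive, with a median of 0.45 against 0.00 for all tested genes. There were 14 at an unadjusted p under 0.05, against 2204 of the 12074 tested genes. The edgeR test called 0 members and DESeq2 called 1, against 402 and 875 of all tested genes. The smallest p belonged to Rpl28 (0.69, SE 0.25, adjusted p = 0.141, limma) and Rpl13a (0.66, SE 0.27, adjusted p = 0.19, limma). Without S25 and S27 the median was -0.04, and without S26 it was 0.73 with 29 members called, against 13.8% of all tested genes in that fit. With all libraries, other coding genes under 1000 nt had interaction medians about as high as the core members or higher, as given with transcript length below.

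**Figure D3:**
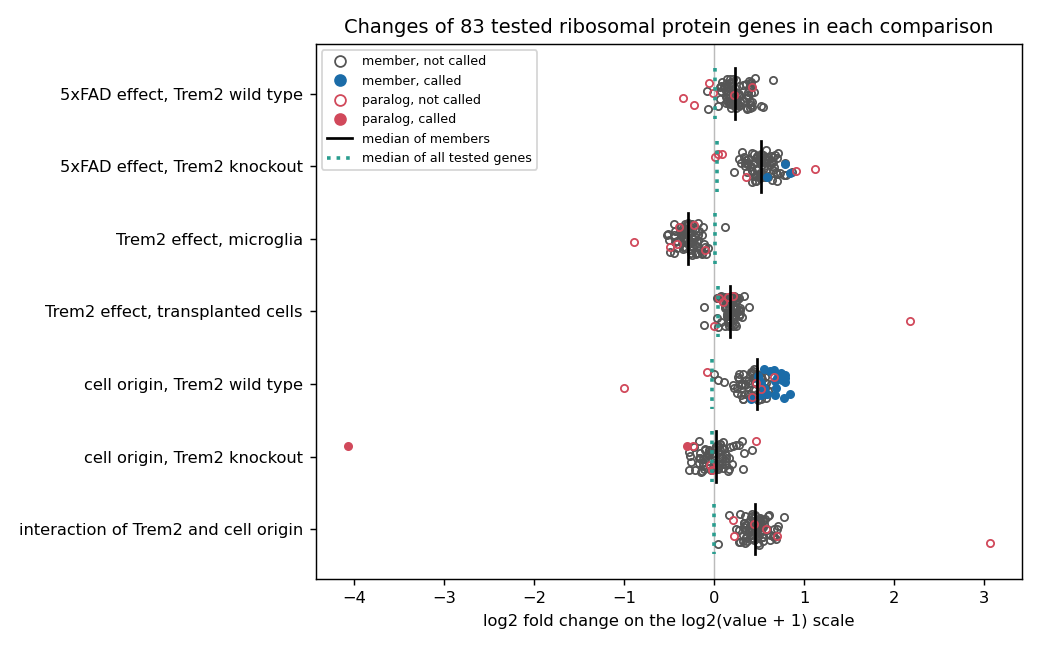
Log2 fold change (x axis, log2(value + 1) scale) of each of the 83 tested members in each comparison (y axis: 5xFAD against normal, Trem2 wild type against knockout, transplanted cells against microglia, and their interaction), with paralogs in red, called genes filled, and lines at the median of the members and of all tested genes. Filled blue points appear for 3 members in the knockout 5xFAD comparison and 21 in the wild-type origin comparison, and Rpl39l lies far from the rest.

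The paralogs departed most from the block. After the median of the core members of each library was taken off, the range of the group means was widest for Rpl39l (4.11), Rpl7l1 (1.046) and Rpl36al (0.68), ahead of the first core member, Rpl24 (0.58), on the log2 scale. Rpl7l1, a relative of Rpl7 on chromosome 17 (46773907 to 46782672, GRCm38), was at 2717, 3091 and 2884 in normal microglia, 2417, 2587 and 2445 in wild-type and 2905, 2872 and 2951 in knockout 5xFAD microglia. Transplanted cells had 2389, 2349, 2469.6 and 2202 with wild-type donors and 2332, 2161, 2817 and 2201 with knockout donors. S25 and S27, where most members were high, lay close to S26, and every knockout transplant library lay below every knockout microglia library. The fall of -0.30 (SE 0.10, adjusted p = 0.0361, limma) was lost without S25, S27, S32, S33 or S35.

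Rpl39l, the testis-enriched relative of Rpl39 that lies on chromosome 16, was near the detection limit. It was at 24.1, 8.56 and 2.27 normalized read counts in normal microglia, 5.9, 6.03 and 24.7 in wild-type and 37.0, 4.38 and 37.9 in knockout 5xFAD microglia. Transplanted cells had 2.24, 1.14, 6.57 and 14.6 with wild-type donors and 0.97, 0, 0 and 0 with knockout donors, the latter from 1 read in all. By reads it was 120.2-fold higher in knockout microglia than in knockout transplants (75 reads against 1, exact 95% interval 20.9 to 4811, counting error only). The limma change was -4.08 (SE 0.92, adjusted p = 0.0028), a value that depends on the pseudocount, and it stayed called without any 1 library. Wild-type transplants had 20 reads against the 1 of knockout transplants, a ratio of 26.8 (4.3 to 1113), not called by limma (adjusted p = 0.117). The spread within the other groups was wide, from 2.27 to 24.1 in normal microglia alone.

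Rpl36al, whose protein is nearly the same as that of Rpl36a, made up 63.5% ± 5.08 (SD, n = 3) of the normalized read counts of that pair in normal microglia and 51.3% ± 6.0 (n = 3), 52.1% ± 6.03 (n = 3), 48.8% ± 5.81 (n = 4) and 52.6% ± 2.41 (n = 4) in the other 4 groups in the order above. Its counts were 539.6, 558 and 541 in normal and 442, 409.8 and 436 in wild-type 5xFAD microglia, a change of -0.35 (adjusted p = 0.352, limma), while Rpl36a was at 0.38 (adjusted p = 0.65). The Rpl36al libraries did not overlap and its change was the lowest of all members, although it was not called. Rpl7l1 made up 49.0% ± 1.96 of its pair with Rpl7 in normal microglia and 38.2% to 42.9% as the means of the other groups.

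The remaining paralogs kept nearly the same share of their pair in every group. Rps27l, a p53 target, made up 28.2% to 33.4% of its pair with Rps27 by group mean, Rps27rt, a retrotransposed copy, 2.15% to 2.5%, and Rpl22l1, a relative of Rpl22 that is controlled by it, 33.7% to 39.8%. Rpl22l1 was high in S25 and S27, as the block was, with 498, 200.3 and 422 in S25, S26 and S27 against 153, 218 and 190.3 in normal microglia, a change of 0.91 (SE 0.28, adjusted p = 0.0681, limma) that was not called. Reads of near-identical copies such as Rps27 and Rps27rt may be split by the authors' counting, so these shares are uncertain, as are values of members with processed pseudogenes elsewhere in the genome.

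**Figure D4:**
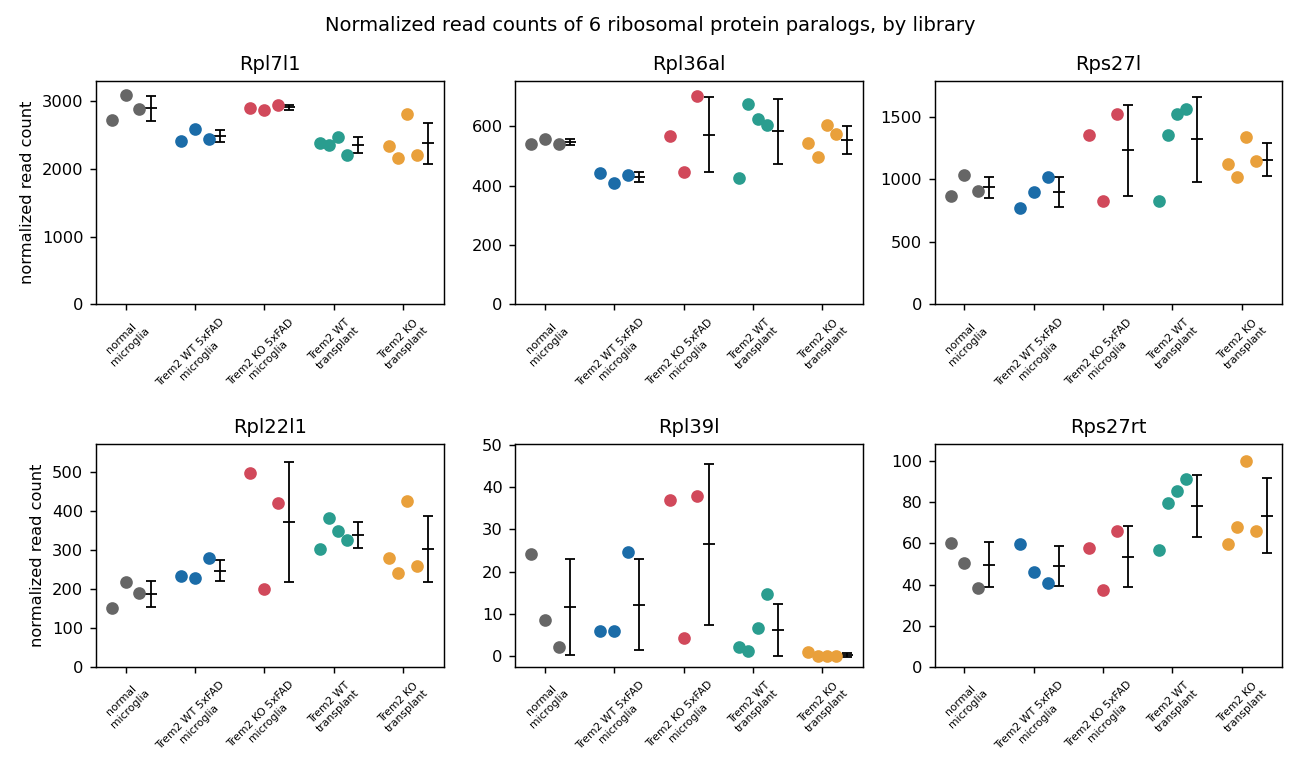
Normalized read counts (y axis, linear) of 6 paralogs in each library, by group, with group mean and SD as black marks beside the points. Rpl7l1 is at 2872 to 2951 in knockout microglia and at 2161 to 2817 in knockout transplants, and Rpl39l is at 0.97 or 0 in knockout transplants.

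Size was a property the members share: the median annotated transcript of the 77 core members was 833 nt, against 2922 nt for other tested coding genes. Length classes were chosen after the values were seen and are given as a description. In the wild-type origin comparison the rank correlation of length and change across the 77 core members was -0.45 (Spearman; genes are not independent and share all libraries), with a median of 0.63 in the 10 shortest and 0.43 in the 10 longest. Other coding genes followed length too, with a median of 0.55 in 43 genes under 500 nt, close to the 0.60 of the 9 core members of that length, and -0.25 in the longest class. In the next 2 classes from 1000 nt up, the core members had 0.39 and 0.43 against 0.20 and 0.05 for other genes. In the knockout 5xFAD comparison other genes under 500 nt had a median of 0.44 against 0.60 for the core members. There, in the next 3 classes from 700 nt up, other genes had 0.20, 0.12 and 0.02, while the core members had 0.51, 0.55 and 0.52. In the Trem2 comparison of microglia, other genes had -0.47, -0.38, -0.27 and -0.205 in the first 4 classes. The core members had -0.32, -0.33, -0.27 and -0.25. For transplanted cells the values were 0.165, 0.23, 0.18 and 0.13 against 0.18, 0.17, 0.17 and 0.21. In the interaction they were 0.64, 0.575, 0.44 and 0.30 against 0.45, 0.52, 0.44 and 0.42. In the class from 1500 nt, other genes had -0.04, 0.08 and 0.085 in these 3 comparisons. The core members there had -0.22, 0.12 and 0.36. The part of length in these shifts was not tested. In the comparison of wild-type 5xFAD with normal microglia, other genes had medians of -0.11 to -0.05 in the 4 classes after the shortest, and the core members had 0.20 to 0.27.

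**Figure D5:**
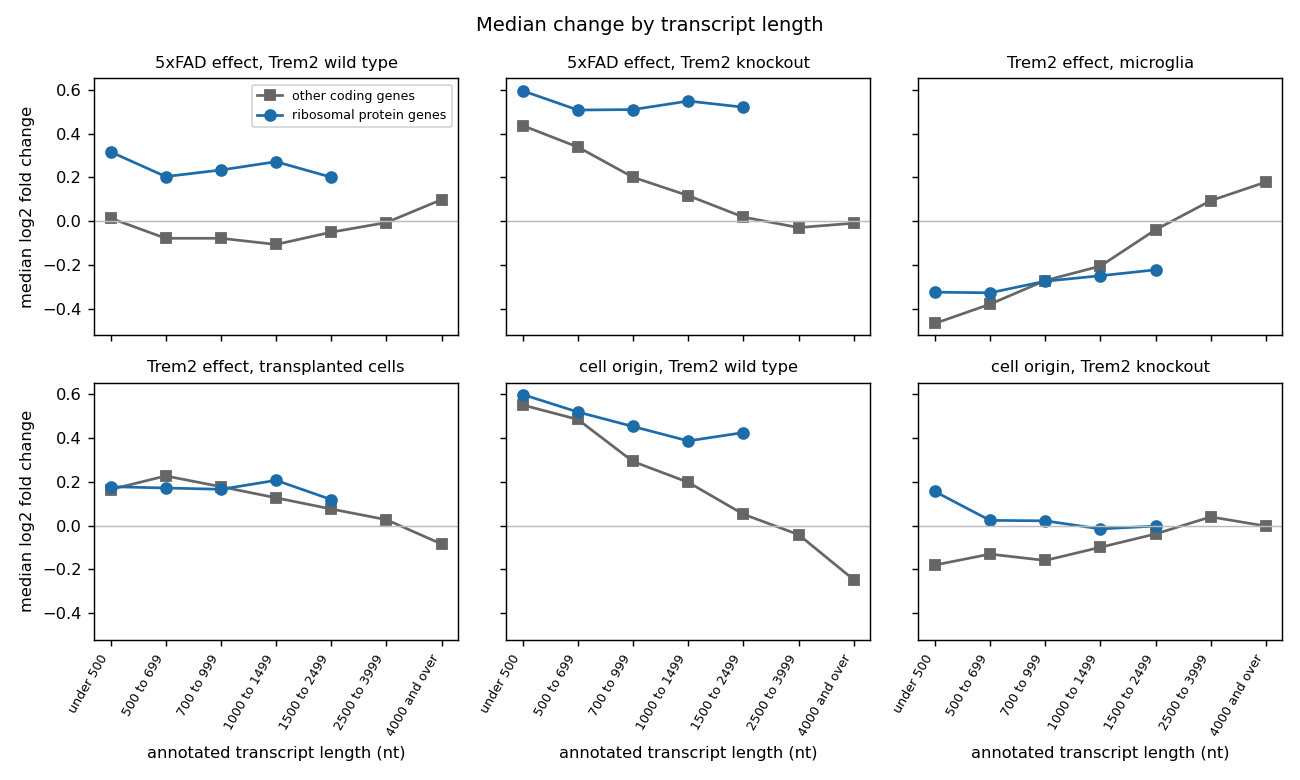
Median log2 fold change (y axis) by class of annotated transcript length (x axis, nt) for other tested coding genes (grey) and core members (blue, classes with 7 or more), in 6 comparisons. In the wild-type origin panel the lines start at 0.55 (grey) and 0.60 (blue) and both fall over the first 4 classes, and in the wild-type 5xFAD panel the blue line lies above the grey one in every class shown.

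Core members with and without a match to the tract definition had similar medians. In the wild-type origin comparison the median change was 0.49 in the 33 core members with a tract and 0.46 in the 24 without, and in the knockout 5xFAD comparison 0.49 and 0.55. In wild-type 5xFAD microglia it was 0.21 and 0.27. The match takes in bases before the annotated start and occurred in 26.5% of other tested genes. This split may therefore not separate mRNAs with and without a terminal tract, and a part of the tract was not tested.

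Fau, a ribosomal protein gene named outside the rule and made as a fusion with a ubiquitin-like protein, had changes near the members' medians, at 0.50 in the wild-type origin comparison (adjusted p = 0.0904, limma) and 0.59 in the knockout 5xFAD comparison (adjusted p = 0.111, limma), and was not called. Of 7 elongation factors only Eif5a, which eases translation of proline stretches, was called, at 0.38 in the wild-type origin comparison and 0.34 in the Trem2 comparison of transplanted cells (adjusted p = 0.00808 and 0.0403). Of 31 initiation factors 5 rose and 2 fell in the wild-type origin comparison, which is 22.6% against 28.2% of all tested genes, led by Eif3f (0.58) and Eif3j1 (-0.63), with a median of 0.09. Of 19 other genes whose mRNAs carry the tract, the median there was 0.26, where Vim, an intermediate filament gene, rose by 2.06, Eif3f rose as well and Pabpc1, the poly(A)-binding protein, fell by 0.62.

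The 32 ribosome biogenesis genes had medians of 0.06, 0.09 and 0.02 in the wild-type 5xFAD, knockout 5xFAD and wild-type origin comparisons, against 0.23, 0.52 and 0.47 for the members. In the last, Polr1a, the largest subunit of RNA polymerase I, fell by 1.58 and Nop2, an rRNA methyltransferase, by 0.50, while Nop10 rose by 0.67. Among 19 genes of mTORC1 and MYC control, 1 rose and 0 fell in wild-type 5xFAD microglia, which was Myc, at 0.91 (adjusted p = 0.0106, limma). In the wild-type origin comparison 2 rose and 4 fell, which is 31.6% against 28.2% of all tested genes. There Myc fell by 1.09 and Max, its binding partner, by 0.86, while Ddit4, an inhibitor of mTORC1, fell by 3.23 and Rptor, a subunit of mTORC1, by 0.99. The 2 that rose were Eif4ebp1, a repressor of cap-dependent translation, at 0.55, and Mxd1, an antagonist of Myc, at 0.46. The 77 tested genes of the mitochondrial ribosome had a median of -0.19 in wild-type 5xFAD microglia with 0 called, against 0.23 for the cytosolic members. In the wild-type origin comparison it was 0.25 with 13 rising (16.9%, against 13.6% of all tested genes). In the Trem2 comparison of microglia 71 were negative, with a median of -0.25 against -0.29 for the cytosolic members. In the interaction 70 were positive, with a median of 0.33 against 0.45. The medians were 0.09 against 0.52 in knockout 5xFAD microglia, 0.10 against 0.17 for Trem2 in transplanted cells and -0.08 against 0.01 in the knockout origin comparison.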

How the data were processed

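Total RNA of sorted cells was sequenced in 17 libraries, per the labels' protocols. The authors deposited 1 table of normalized read counts, a signal per gene and library. The submitters' processing notes name bcl2fastq, STAR (2.5.2b), HTSeq, RSEM, DESeq2 (given with version 3.17), mm10 and GRCm38.p6; the role of each, the counting options and the annotation were not given in the sources used. In every library 100% of the values were a whole number of equal steps (tolerance 0.02), and dividing by the step recovered reads. In S20 the step was near 1, which makes this less informative. Totals had a median of 19254498 reads.

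Outside the normal group, column names give a library's group and no distinct replicate, so libraries were assigned to groups only. The log2(value + 1) scale was used. The 12074 genes with at least 10 in at least 3 libraries were kept. A single limma model (3.58.1, R 4.3.3) with a mean per group and an intensity trend was fitted to all libraries, tests were two-sided and p-values were adjusted by Benjamini-Hochberg over all tested genes. Its procedure was run on simulated counts with independent genes and a common spread for all genes. Those counts lack the block movement, the outlying S26 and the close pairs of libraries, so the run gives no support to the calls of members. Alternatives were a pseudocount of 10, no filter, TMM factors, upper-quartile rescaling, edgeR (4.0.16) and DESeq2 (1.42.0) on recovered reads, other sets of samples and leaving out libraries. The edgeR quasi-likelihood test called 458, 443, 569, 1027, 3409, 3036 and 402 genes in the order of the comparisons.

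The members and gene lists were chosen with earlier results of these data known. Named members are the P stalk, 5S rRNA partners, Rpsa, Rps6, Rps27a and paralogs with parents, up to 4 called members with the largest change per comparison and direction (with none called, the 2 with the smallest p), and the 3 highest and lowest by level. Rpl4, Rpl24 and single genes named to complete a list or a count were added after their values were seen, as were the tract definition, the length classes and the choice of printed starts. All 84 symbols matched GENCODE vM21 (GRCm38), which gave positions and lengths. Values of a few genes, 1 member among them, are not reported here.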

Additional observations from a re-analysis of the deposited data

Results flagged for a closer look

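In each group of 4 libraries, the highest and the lowest value of every named member were compared with the other 3 by Dixon's test, and 4 of 67 cases exceeded the 95% critical value. Chance alone gives about 1 in 20. Rpl5 in S28 of the wild-type transplants was far below the others, at 1506 normalized read counts against 2155 to 2207, a gap of 0.926 of the range. Rpl38 in S34 of the knockout transplants was far above the others, at 963 against 723 to 755, a gap of 0.866 of the range. In the knockout transplants Rpl39l was 0.97 in S32 and Rpl3l was 5.33 in S34, with the other libraries at 0, so that the gap was the whole range (1.0) and rests on very few reads.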

How the results depend on the processing

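For 5xFAD in Trem2 wild type, 0 called members became 21 with only the compared groups in the model and 1 without S26 or without S30 and S31, and stayed at 0 to 0 leaving out any 1 of the 6 libraries compared; the ranges below likewise leave out 1 library of the comparison. For knockout 5xFAD against normal microglia, 3 became 1 with no filter, 5 with TMM factors, upper-quartile rescaling or edgeR, and 25 with DESeq2. They became 75 without S26, 9 without S30 and S31, and 0 with only the compared groups or with the closest pairs averaged. Leaving out 1 library gave a range of 0 to 75. For Trem2 in microglia, 0 became 39 without S26 (0 to 39 leaving out 1 library). For Trem2 in transplanted cells, 0 became 2 with DESeq2 and 1 without S26 (0 to 3). For cell origin in wild type, 21 became 40 with DESeq2, 45 without S26, 42 without S25 and S27, and 0 with the closest pairs averaged or without S30 and S31 (6 to 60). For cell origin in knockout, 2 became 1 with TMM factors, edgeR, only the compared groups or the closest pairs averaged, 12 without S26, and 9, all rising, without S25 and S27 (1 to 12). For the interaction, 0 became 1 with DESeq2 and 29 without S26 (0 to 29). Calls over all 12074 tested genes changed too, so these counts alone do not set the members apart. For knockout 5xFAD against normal microglia DESeq2 called 1266 genes and edgeR 443, against 472 in the main fit. DESeq2 called 1695 against 814 for Trem2 in transplanted cells, 3870 against 3399 for cell origin in wild type and 875 against 341 for the interaction. Shares for several omissions stand with the comparisons above, and the others are not given here. Without S25 and S27 the median change turned to -0.007 for knockout 5xFAD against normal microglia, 0.243 for Trem2 in microglia and -0.039 for the interaction. Without S30 and S31 it turned to -0.116 for Trem2 in transplanted cells. The cause was not tested beyond these omissions. Fewer libraries also make a given change harder to call, although leaving out the outlying S26 raised the number of calls. Without S25 and S27 the lone S26 is assumed to vary like the other groups. The mean share of reads in knockout transplants was 1.21% without Apoe, an alternative chosen after seeing the data. For named members, 3938 of 4192 values under an alternative stayed on the same side of the threshold, 184 passed it anew and 70 no longer did, and 7 of 14 calls held without any 1 library. Rpl39l and Rpl3l are limited by depth, since a few reads set their values. No paired analysis was possible because most column names show a library's group without a replicate number that could tie it to another group.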
